A study of Homo sapiens with 6 samples.

Results

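The mRNAs of 10 regulators of apoptosis were followed in ribosomes pulled down from MDA-MB-231 cells that had been given the chemokine CXCL12 together with the growth factor IGF1. The genes were taken by name, by role, with earlier results of these data known, out of 21619 genes counted in each library. They were the pro-survival genes BCL2L1 and MCL1, the BH3-only genes BCL2L11, BMF, PMAIP1 and BBC3, the effectors BAK1 and BAX, and the inhibitor-of-apoptosis (IAP) genes BIRC2 and BIRC3. All 10 passed the filter on low counts and were tested. MDA-MB-231 is a human mesenchymal, triple-negative breast cancer line; the cells carried an EGFP-tagged ribosomal protein L10a, so that an antibody to GFP pulls down tagged ribosomes with the mRNA on them (translating ribosome affinity purification, TRAP). Every culture, the untreated one included, carried the tag and was held for 24 h in 0.2% serum before the 6 h of treatment. The 3 groups had 2 libraries each, called a and b. They were untreated cells, cells at a lower dose (CXCL12 at 30 ng/mL, IGF1 at 10 ng/mL) and cells at a higher dose (CXCL12 at 300 ng/mL, IGF1 at 100 ng/mL). Neither factor was given alone, so their separate effects cannot be told apart, and total RNA was not analysed here, so mRNA abundance and ribosome association cannot be told apart either.

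Reads on genes ran from 26255079 to 30280322 per library, and 3 reads, the limit that a count of 0 allows, correspond to 0.0991 to 0.114 CPM, the read count scaled to the TMM-adjusted library total. These limits cover counting error only. Of markers of the line, VIM stood at 2680 to 3748 CPM and CD44 at 741 to 940 CPM, with ESR1 and PGR at 0 to 0.177 CPM and CDH1 at 0.0709 to 0.450 CPM. ERBB2, listed as not amplified in the line, was detected at 54 to 77 CPM. EPCAM, listed as low or absent, was detected at 11.3 to 13.6 CPM. PTPRC, ALB and INS, which mark leukocytes, hepatocytes and beta cells, did not exceed 0.533 CPM, PECAM1 reached 1.94 CPM, and GFAP, listed as a glial marker, stood at 14.8 to 17.7 CPM. Replicates are described as biological in the labels. The p-values below rest on the spread between libraries of a group, pooled over the 3 groups and moderated by the spread of all genes tested. They are thus not a measure of the spread of 1 gene's own libraries alone.

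In the mitochondrial pathway of apoptosis, the effectors BAK and BAX open the outer mitochondrial membrane and release cytochrome c, which leads to caspase activation. BCL-xL (BCL2L1) and MCL1 hold the effectors in check, and BH3-only proteins such as BIM (BCL2L11), BMF, NOXA (PMAIP1) and PUMA (BBC3) bind the pro-survival proteins or the effectors and so promote death. The cellular IAP proteins cIAP1 (BIRC2) and cIAP2 (BIRC3) are ubiquitin ligases of TNF receptor and NF-kB signalling. Growth factors acting through AKT are known to restrain FOXO factors, which can raise BIM and other death genes, and BIRC3 is a textbook NF-kB target.

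The stretches before the start sites of the 4 genes with the largest changes at the higher dose are shown because those genes moved in opposite directions, 3 up and 1 down. Each is the 250 bases upstream of a RefSeq start (GRCh38.p14, not the hg19 build of the counts), 5′ to 3′ on the gene's strand. Capitals mark matches, on either strand, to 4 motifs: a degenerate NF-kB motif of 10 bases, the FOXO core TGTTTNC, the E-box CACGTG and the cyclic AMP response element TGACGTCA.
BIRC3, chr11:102317234-102317483, plus strand: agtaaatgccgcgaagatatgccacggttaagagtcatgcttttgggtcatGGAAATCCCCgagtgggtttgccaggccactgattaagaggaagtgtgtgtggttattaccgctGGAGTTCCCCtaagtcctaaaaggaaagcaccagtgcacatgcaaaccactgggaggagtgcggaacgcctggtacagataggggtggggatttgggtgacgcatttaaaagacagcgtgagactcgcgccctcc
BIRC2, chr11:102346964-102347213, plus strand: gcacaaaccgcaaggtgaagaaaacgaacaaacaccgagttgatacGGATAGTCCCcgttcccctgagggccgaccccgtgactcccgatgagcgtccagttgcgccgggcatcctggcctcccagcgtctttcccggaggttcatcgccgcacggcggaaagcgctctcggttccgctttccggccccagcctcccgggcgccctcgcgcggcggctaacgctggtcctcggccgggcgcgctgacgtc
PMAIP1, chr18:59899746-59899995, plus strand: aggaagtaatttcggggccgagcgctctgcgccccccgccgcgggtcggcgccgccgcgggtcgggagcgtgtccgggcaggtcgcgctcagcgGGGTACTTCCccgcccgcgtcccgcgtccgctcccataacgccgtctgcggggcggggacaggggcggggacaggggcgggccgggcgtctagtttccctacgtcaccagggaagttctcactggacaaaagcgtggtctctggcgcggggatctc
BMF, chr15:40108880-40109129, minus strand: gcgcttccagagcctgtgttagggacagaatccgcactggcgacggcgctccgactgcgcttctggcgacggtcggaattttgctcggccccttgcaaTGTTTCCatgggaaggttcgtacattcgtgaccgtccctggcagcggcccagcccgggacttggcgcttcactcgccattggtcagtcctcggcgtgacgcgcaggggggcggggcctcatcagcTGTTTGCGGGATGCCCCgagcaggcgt

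BIRC3 held 2 NF-kB matches, and BIRC2 and PMAIP1 held 1 each. The BMF window shown held 2 FOXO matches, the second directly followed by an NF-kB match in the same run of capitals, while the other BMF start in the table had no match to any of the 4 motifs. Of all 35116 RefSeq start windows of this length, 28.9% held at least 1 NF-kB match and 8.85% at least 2, so the NF-kB letters alone were common. The FOXO letters were in 15.5% of windows, and 1.8% had at least 2 matches. The table held 12 starts for 9 of the 10 genes and none for MCL1. Of these 12 starts, 7 held an NF-kB match. They included a BCL2L1 start with 1 match and a BCL2L11 start with 2 overlapping matches, so such matches were not confined to the genes with the largest changes. A BCL2L11 window had the FOXO letters as GTAAACA, at 223 to 217 bases before its start. BAX had 4 E-boxes, a number found in 0.0142% of windows, and the second BIRC2 start, not shown, had an NF-kB match, a FOXO match (TGTTTGC, 19 to 13 bases before the start) and a cyclic AMP response element, found in 1.65% of windows. FOXO letters thus stood before BMF, which fell, and before BIRC2 and BCL2L11, which rose. BCL2L1, BMF and BIRC2 had 2 starts each in the table. A match is a description of the letters and not of binding.

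Levels between genes were compared per kilobase of a principal GENCODE transcript. In untreated cells BCL2L1 was highest at 248 CPM per kb, followed by BAX at 202 (196 and 209 in its libraries) and MCL1 at 84.2. BAK1 (38.9 CPM per kb) and PMAIP1 (36.1) came next, then BIRC2 (20.8). The low end held BCL2L11 (6.12 CPM per kb), BBC3 (5.54), BIRC3 (2.97) and BMF (1.10). No neighbours in this order overlapped between their libraries; BAK1 had 38.8 and 39.0 CPM per kb where PMAIP1 had 34.5 and 37.7. The place of BCL2L11 and the distance of BAX depended on the transcript, since with the longest protein-coding one, chosen after seeing the data, they stood at 1.78 and 118 CPM per kb. At the higher dose 2 places were exchanged. PMAIP1 (51.9 and 56.8 CPM per kb) then stood above BAK1 (51.7 and 51.1), and BIRC3 (5.59 and 5.62) above BBC3 (5.13 and 4.72). BCL2L1 and BAX were then at 248 and 239 CPM per kb. Gene counts do not separate splice forms, so the long and short forms of BCL2L1, MCL1 and BCL2L11 were counted together.

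**Figure D1:**
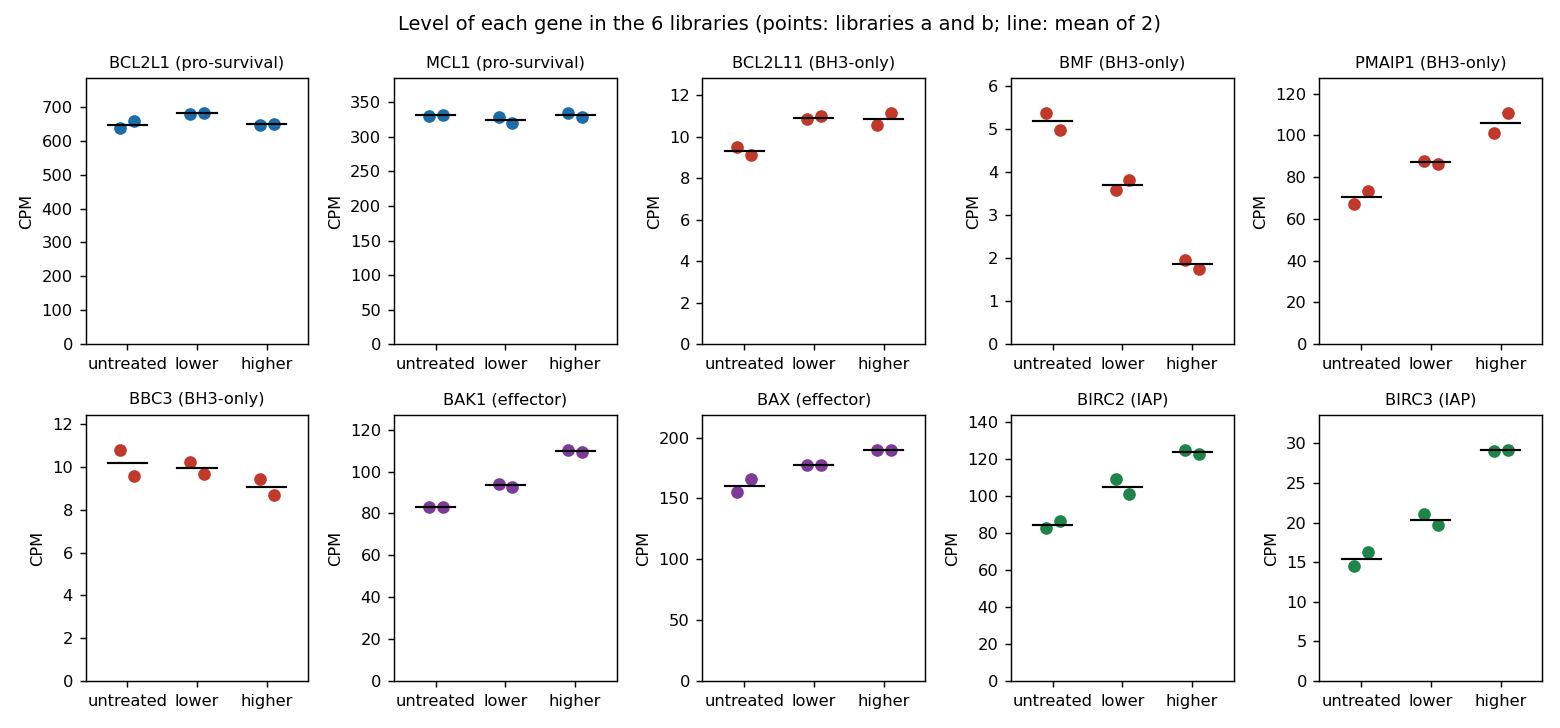
CPM (vertical axis, from 0) of each of the 10 genes in untreated, lower dose and higher dose libraries; points are libraries a and b, lines the mean of 2, and colours the role. BIRC3 went from 15.4 to 29.1 CPM and BMF from 5.17 to 1.85 CPM between untreated cells and the higher dose, while MCL1 stayed between 320 and 334 CPM in all 6 libraries.

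The first question was how the lower dose altered these mRNAs. 7 of the 10 genes rose, 1 fell and 2 did not pass the test (edgeR quasi-likelihood test, adjusted p under 0.05 over 13548 genes). Over all genes tested 32.6% passed, 16.7% rising and 15.9% falling. The median log2 fold change of the 10 genes was 0.16, against 0.00 over all genes. Since the 10 genes were chosen with earlier results of these data known, such counts and medians describe them and do not test them as a group. The same counts at the higher dose were 6 up, 1 down and 3 not passing, where 56.3% of all genes passed, 28.1% rising and 28.2% falling. The 10 genes had a median of 0.23 there and all genes a median of 0.00. After correction for transcript length and GC content the higher dose median of the 10 genes was 0.12, against 0.02 over all genes, and 5 rose and 1 fell in each of the 3 comparisons. With DESeq2, 6 genes rose at the lower dose, and 5 rose and 1 fell at the higher dose. Both doses were compared with the same untreated libraries. Between the doses 5 genes rose and 2 fell, where 34.0% of all genes passed, 16.4% rising and 17.6% falling. In 6 of the 10 genes the libraries followed the dose with no overlap between any groups, 5 rising (PMAIP1, BAK1, BAX, BIRC2, BIRC3) and BMF falling. Of all genes tested 36.0% did so, 18.0% in each direction. Taken pair by pair, the libraries of the groups did not overlap for 9 of the 10 genes at the lower dose (64.4% of all genes), 8 at the higher (76.3%) and 9 between the doses (64.8%). Calls of at least 1.5-fold were fewer. There were 0 among the 10 at the lower dose (0.760% of all genes), 3 at the higher dose (BMF, PMAIP1 and BIRC3; 6.90% of all genes) and 1, BMF, from the lower to the higher (1.33%). PMAIP1 was only just past this limit at the higher dose, at 1.502-fold. After correction for transcript length and GC content it was under the limit (log2 fold change 0.46).

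Both pro-survival genes of the list had log2 fold changes of 0.00 at the higher dose. BCL2L1, which encodes BCL-xL, had 637 and 658 CPM untreated, 680 and 681 CPM at the lower dose, and 646 and 651 CPM at the higher dose. Both lower dose libraries stood above the other 4. The gene overlaps an antisense transcript in RefSeq, and without strand information reads of the 2 cannot be told apart. BCL2L1 rose at the lower dose by 5.16% (log2 fold change 0.07 ± 0.03 SE, edgeR adjusted p = 0.0285) and fell again between the doses (−0.07 ± 0.03, edgeR adjusted p = 0.0324). At the higher dose its log2 fold change against untreated cells was 0.00, with a 95% interval of −0.05 to 0.06. Corrected for transcript length and GC content, BCL2L1 had 0.11 at the lower dose (edgeR adjusted p = 0.000279). The corrected higher dose value was 0.05 (edgeR adjusted p = 0.0531). The rise at the lower dose was not called without untreated a (0.05, edgeR adjusted p = 0.292), without either lower dose library (0.111 without a and 0.112 without b), or in a fit of the 2 groups alone (0.0537). The step between the doses was lost after correction for transcript length and GC content (−0.05, edgeR adjusted p = 0.0893) and without any one library of those groups (edgeR adjusted p from 0.105 to 0.175).

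MCL1, a short-lived pro-survival protein, had 331 and 331 CPM untreated, 329 and 320 CPM at the lower dose, and 334 and 329 CPM at the higher dose. All 6 libraries lay between 320 and 334 CPM, with the higher dose libraries on both sides of the untreated ones. The log2 fold change of MCL1 was −0.03 (95% interval −0.08 to 0.03) at the lower dose and 0.00 (−0.05 to 0.06) at the higher dose (edgeR adjusted p = 0.462 and 0.942). After correction for transcript length and GC content, MCL1 passed between the doses (0.07, edgeR adjusted p = 0.0369). Its corrected value at the higher dose was 0.06 (edgeR adjusted p = 0.0597).

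The BH3-only genes went in different directions. BMF, whose protein binds pro-survival members of the family, had the largest change of the 10. Its libraries held 5.36 and 4.98 CPM untreated, 3.57 and 3.80 CPM at the lower dose, and 1.95 and 1.75 CPM at the higher dose, from 50 to 151 reads. The groups did not overlap, and each step of dose was lower than the one before. BMF fell by 28.5% at the lower dose (−0.48 ± 0.13, edgeR adjusted p = 0.00316) and fell by 64.0% at the higher dose (−1.48 ± 0.16, edgeR adjusted p = 6.25e-12). Between the doses it fell by 49.7% (−0.99 ± 0.17, edgeR adjusted p = 3.40e-06). Only 0.111% of the genes tested had a value as low as that of BMF, or lower, at the higher dose. DESeq2 gave BMF at the lower dose a log2 fold change of −0.49 and no adjusted p, since its filter on low means left the gene out. The unadjusted DESeq2 p of BMF was 0.0293, so BMF was not called there. In the same comparison BCL2L1, with a smaller unadjusted DESeq2 p of 0.0104, had an adjusted p of 0.0448.

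PMAIP1 encodes NOXA, a small BH3-only protein that binds MCL1. It had 67.2 and 73.5 CPM untreated, 88.0 and 86.2 CPM at the lower dose, and 101 and 111 CPM at the higher dose. Here too the groups did not overlap, in the opposite order to BMF. PMAIP1 rose by 23.5% at the lower dose (0.30 ± 0.04, edgeR adjusted p = 3.81e-08) and by 50.2% at the higher dose (0.59 ± 0.04, edgeR adjusted p = 1.59e-18). It also rose between the doses (0.28 ± 0.04, edgeR adjusted p = 4.18e-08).

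BCL2L11, the gene of BIM, had 9.51 and 9.13 CPM untreated, 10.8 and 11.0 CPM at the lower dose, and 10.6 and 11.1 CPM at the higher dose. Treated libraries of both doses stood above the untreated ones and overlapped each other. BCL2L11 rose by 17.3% at the lower dose (0.23 ± 0.09, edgeR adjusted p = 0.0412) and by 16.6% at the higher dose (0.22 ± 0.09, edgeR adjusted p = 0.0320), and its value between the doses was −0.01 (95% interval −0.18 to 0.16). Neither call held with DESeq2 (adjusted p = 0.243 and 0.193), nor after correction for transcript length and GC content (0.17 and 0.14, edgeR adjusted p = 0.156 and 0.194). Leaving out any library of the groups compared also ended them, with edgeR adjusted p from 0.0753 to 0.190 at the lower dose and from 0.0506 to 0.183 at the higher dose.

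BBC3, the gene of PUMA, had 10.8 and 9.56 CPM untreated, 10.2 and 9.65 CPM at the lower dose, and 9.44 and 8.67 CPM at the higher dose. The untreated and lower dose libraries overlapped, and the higher dose libraries were the lowest 2. BBC3 did not pass at either dose (−0.03 ± 0.09 and −0.16 ± 0.09, edgeR adjusted p = 0.840 and 0.134), and the 95% interval at the higher dose ran from −0.35 to 0.02. Without untreated b it passed at the higher dose (−0.26, edgeR adjusted p = 0.0498).

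**Figure D2:**
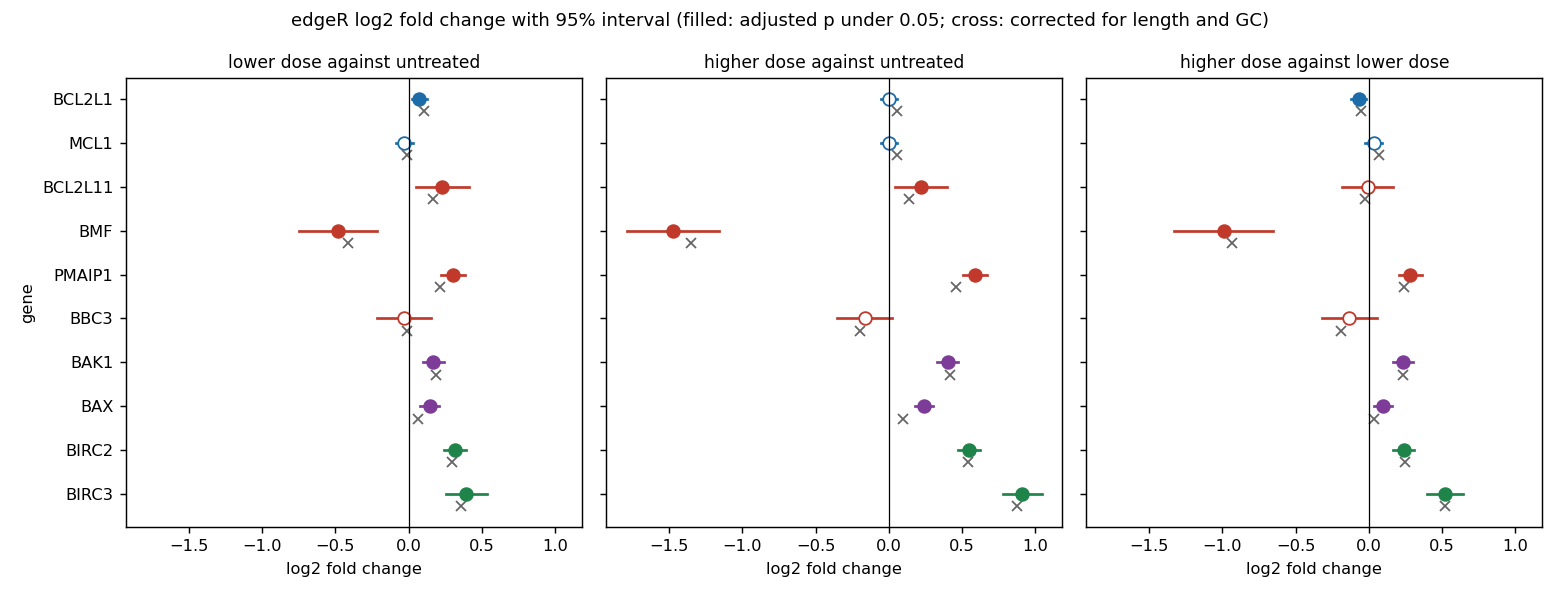
edgeR log2 fold change (horizontal axis) of each gene in 3 comparisons, with 95% intervals; filled points have an adjusted p under 0.05, colours give the role, and grey crosses are the values corrected for transcript length and GC content. BMF lies at −1.48 and BIRC3 at 0.91 at the higher dose, while BCL2L1 and MCL1 lie at 0.00.

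Both effectors rose. BAK1, which sits in the outer mitochondrial membrane, had 83.0 and 83.2 CPM untreated, 94.0 and 92.8 CPM at the lower dose, and 110 and 109 CPM at the higher dose. The libraries of a group lay close together and the groups did not overlap. BAK1 rose by 12.4% at the lower dose (0.17 ± 0.04, edgeR adjusted p = 0.000154), by 32.2% at the higher dose (0.40 ± 0.04, edgeR adjusted p = 9.13e-15) and by 17.6% between them (0.23 ± 0.03, edgeR adjusted p = 1.75e-07).

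BAX, which moves from the cytosol to mitochondria when activated, had 156 and 166 CPM untreated, 178 and 178 CPM at the lower dose, and 189 and 190 CPM at the higher dose. Its groups were ordered by dose with no overlap. BAX rose by 10.4% at the lower dose (0.14 ± 0.03, edgeR adjusted p = 0.000259) and by 18.0% at the higher dose (0.24 ± 0.03, edgeR adjusted p = 3.05e-09). Its principal transcript, of 793 nt, is the shortest of the 10. Across 11958 genes, which are not independent replicates, fold change at the higher dose went with shorter length (Spearman rho −0.24), and the part of length in the result for BAX was tested only by the correction that follows. After correction for transcript length and GC content the value of BAX was 0.10 at the higher dose (edgeR adjusted p = 0.00267), and the call at the lower dose was lost (0.07, edgeR adjusted p = 0.0843). The step between the doses (0.10 ± 0.03, edgeR adjusted p = 0.0124) was lost after the correction (0.03, edgeR adjusted p = 0.396), with DESeq2 (adjusted p = 0.0658) and without any one library of these groups (edgeR adjusted p from 0.0552 to 0.0788). BAK1 moved little under the same correction, to 0.42 at the higher dose, and PMAIP1 moved to 0.46.

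The 2 IAP genes had the largest rises among the 10 together with PMAIP1. BIRC3 had 14.5 and 16.4 CPM untreated, 21.1 and 19.6 CPM at the lower dose, and 29.1 and 29.2 CPM at the higher dose. The groups did not overlap. BIRC3 rose by 31.4% at the lower dose (0.39 ± 0.07, edgeR adjusted p = 9.00e-06) and 1.88-fold at the higher dose (0.91 ± 0.07, edgeR adjusted p = 7.61e-18). Between the doses it rose 1.43-fold (0.52 ± 0.06, edgeR adjusted p = 1.01e-09). At the higher dose 99.3% of the genes tested had a value at or below that of BIRC3.

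BIRC2 stands next to BIRC3 on chromosome 11, and its mRNA was the more abundant of the 2 here. BIRC2 had 82.5 and 86.4 CPM untreated, 109 and 101 CPM at the lower dose, and 125 and 123 CPM at the higher dose, again in separate groups. BIRC2 rose by 24.2% at the lower dose (0.31 ± 0.04, edgeR adjusted p = 1.66e-09), by 46.4% at the higher dose (0.55 ± 0.04, edgeR adjusted p = 6.09e-19) and by 17.8% between them (0.24 ± 0.04, edgeR adjusted p = 3.13e-07). The window of BIRC3 printed above held 2 NF-kB matches and that of BIRC2 held 1, while the second BIRC2 start, not shown, held 1 more. Whether these matches bear on the changes was not tested. Corrected for transcript length and GC content, the higher dose values were 0.88 for BIRC3 and 0.54 for BIRC2. Whether the rise of BIRC3 exceeded that of BIRC2 was not tested.

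**Figure D3:**
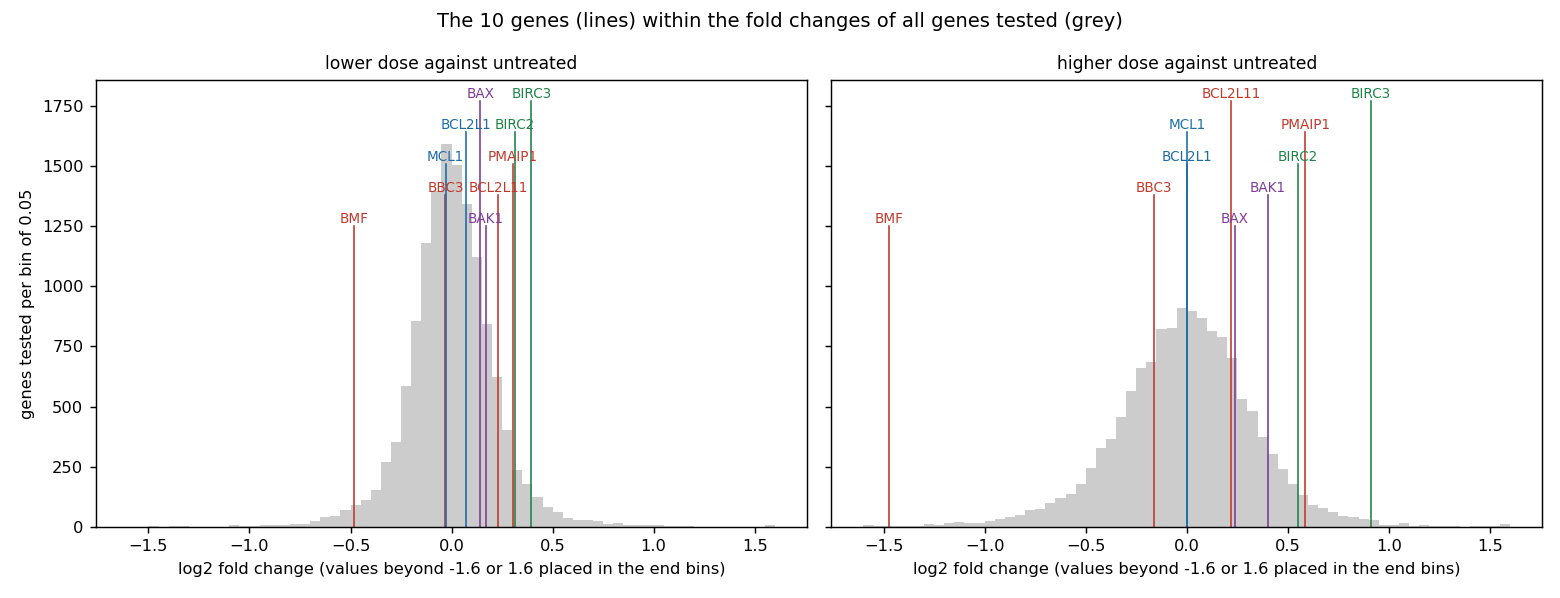
Number of genes tested (vertical axis) per bin of 0.05 in log2 fold change (horizontal axis) at the lower and higher dose, in grey, with the 10 genes as coloured lines whose height carries no value. BMF lies in the left tail of both panels and BIRC3 in the right, at 2.06% and 96.5% of the genes tested at the lower dose and 0.111% and 99.3% at the higher dose.

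The 10 genes differed in the length and letters of their transcripts. Coding sequences ran from 162 nt in PMAIP1 to 1854 nt in BIRC2. ATTTA, the core of AU-rich elements that can shorten the life of an mRNA, was counted in the 3′ untranslated region of the principal transcript. MCL1 had 10 copies, and BIRC3, PMAIP1 and BMF had 5 each. BIRC2 and BCL2L1 had 3 each and BCL2L11 had 1. BAK1, BAX and BBC3 had 0. Among 11138 tested genes with such a region of at least 100 nt, 72.9% had at least 1 copy and 31.5% at least 5. The genes with at least 5 copies thus included BMF, PMAIP1 and BIRC3, which changed at both doses, and MCL1, which did not pass at either.

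Of 48 other genes of the pathway, 41 were tested. At the lower dose 8 rose and 5 fell, and at the higher dose 16 rose and 13 fell, with medians of 0.01 and 0.04. These shares, 13 of 41 and 29 of 41, stand beside 32.6% and 56.3% of all genes. DESeq2 called 6 of the 41 at the lower dose, 3 up and 3 down.

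The 2 other pro-survival genes tested, BCL2 and BCL2L2, rose at both doses; their difference from BCL2L1 and MCL1 was not tested. BCL2 had 9.89 and 10.1 CPM untreated, 11.7 and 12.5 CPM at the lower dose, and 12.3 and 14.1 CPM at the higher dose (0.27 ± 0.09 and 0.40 ± 0.09, edgeR adjusted p = 0.0128 and 8.70e-05). The lower dose call for BCL2 was lost with DESeq2 (adjusted p = 0.135), without untreated a (0.0622) and without lower dose b (0.115). BCL2L2, the gene of BCL-w, had 0.18 ± 0.04 and 0.22 ± 0.04 (edgeR adjusted p = 0.000762 and 2.32e-05). It overlaps a read-through gene with PABPN1, so part of its reads may be assigned elsewhere. BAD, a BH3-only gene inhibited by growth factor signalling at the protein level, rose from 84.4 to 108 CPM at the higher dose (0.36 ± 0.04, edgeR adjusted p = 1.78e-12). Of the 5 other BH3-only genes tested, BAD included, 2 rose and 1 fell at the higher dose, where 28.1% of all genes rose and 28.2% fell. BNIP3L, named after its value was seen, was the 1 that fell (−0.35 ± 0.03, edgeR adjusted p = 1.39e-15).

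Among the other IAP genes, BIRC5 (survivin), which also works in mitosis, rose from 253 to 287 CPM at both doses (0.18 ± 0.03 each, edgeR adjusted p = 1.03e-06 and 2.22e-07). XIAP, the direct caspase inhibitor, had −0.06 ± 0.05 at the lower dose (edgeR adjusted p = 0.351) and fell at the higher dose (−0.12 ± 0.05, edgeR adjusted p = 0.0273). That fall was lost with DESeq2 (adjusted p = 0.149), after correction for transcript length and GC content (−0.05, edgeR adjusted p = 0.368), without untreated a (0.162) and without higher dose b (0.194). DIABLO, which counters IAP proteins, did not pass at the lower dose (0.08 ± 0.03, edgeR adjusted p = 0.0571, or 0.0149 after the same correction) and rose at the higher dose (0.22 ± 0.03, edgeR adjusted p = 3.12e-08).

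CYCS, the gene of cytochrome c, rose from 281 ± 11 CPM to 356 ± 21 at the lower dose and 446 ± 8.5 at the higher dose (SD, n = 2 libraries). Its log2 fold changes were 0.34 ± 0.03 and 0.67 ± 0.03 (edgeR adjusted p = 9.43e-13 and 2.86e-25). FBXW7, the substrate receptor of a ubiquitin ligase that can target MCL1, rose from 8.46 ± 0.94 CPM to 10.6 ± 0.26 and 13.6 ± 1.1 (0.32 ± 0.10 and 0.67 ± 0.09, edgeR adjusted p = 0.00723 and 6.82e-09). The lower dose call for FBXW7 was lost with DESeq2 (adjusted p = 0.0908) and without untreated a (0.21, edgeR adjusted p = 0.157). The list held 3 ubiquitin enzymes of MCL1, and the 2 besides FBXW7 fell at both doses. HUWE1 had −0.18 ± 0.03 and −0.23 ± 0.03 (edgeR adjusted p = 4.06e-06 and 5.92e-09). USP9X had −0.12 ± 0.04 and −0.23 ± 0.04 (edgeR adjusted p = 0.015 and 1.06e-06). Corrected for transcript length and GC content, 0 of the 3 fell at the lower dose and 1 at the higher. HUWE1 and USP9X were named after their values were seen. Of the caspases, CASP2 fell at both doses (−0.15 and −0.23) and CASP10 at the higher dose (−0.30). These caspases were named after their values were seen.

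Of 4 partners of BIRC2 and BIRC3, 1 fell at the lower dose, and 2 rose and 1 fell at the higher dose. After correction for transcript length and GC content 2 rose at the higher dose and the fall was no longer called. TRAF3, named after its value was seen, was the second to rise (0.24 ± 0.05, edgeR adjusted p = 0.000144). TRAF1, an adaptor that binds the cIAP proteins, had 11.9 ± 0.20 CPM untreated, 12.1 ± 0.48 at the lower dose and 16.6 ± 1.05 at the higher dose (SD, n = 2 libraries). It rose at the higher dose against untreated cells (0.48 ± 0.08, edgeR adjusted p = 4.09e-07). MAP3K14, the kinase NIK, whose protein the cIAPs mark for degradation, fell at the lower dose (−0.26 ± 0.05, edgeR adjusted p = 6.36e-05). At the higher dose its value was −0.20 ± 0.05 (edgeR adjusted p = 0.000685), or −0.07 after correction for transcript length and GC content (edgeR adjusted p = 0.218). Of 8 death receptors and their adaptors, 1 was lower at the lower dose by the test and the other 7 were not called, where 15.9% of all genes fell. At the higher dose 6 fell, where 28.2% of all genes did, and FADD, named after its value was seen, rose (0.11). After the correction 2 rose and 1 fell at the lower dose, and 4 fell and 1 rose at the higher dose. FAS, the largest of these falls, went from 4.75 and 5.84 CPM in untreated cells to 3.90 and 3.93 CPM (−0.44 ± 0.13, edgeR adjusted p = 0.00348). It was not called with DESeq2 (−0.44, adjusted p = 0.0707) or without untreated b (−0.28, edgeR adjusted p = 0.160).

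**Figure D4:**
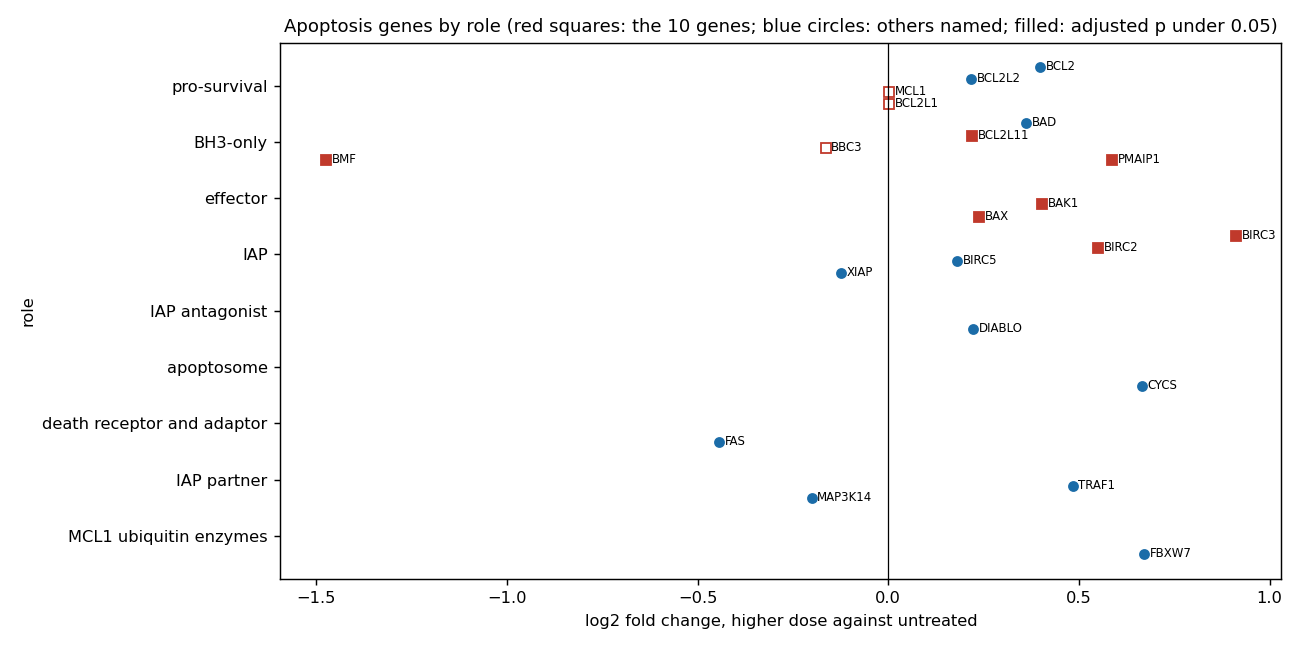
edgeR log2 fold change at the higher dose (horizontal axis) of the 10 genes (red squares) and of the other apoptosis genes chosen by the naming rule (blue circles) by role (vertical axis; vertical offsets within a role carry no value). Filled symbols have an adjusted p under 0.05, and the values run from BMF at −1.48 to BIRC3 at 0.91.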

How the data were processed

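Polysome-associated polyadenylated RNA of MDA-MB-231 cells was sequenced in 6 libraries. The deposited values were raw read counts per gene symbol, 1 file per library, made by the authors; per the submitters' processing notes CASAVA 1.8.1, TopHat 1.4.0, HTSeq and hg19 were used, with no order given. Annotation, counting mode and strand setting: not given in the sources used here. HTSeq's summary lines (9.40% to 10.2% of reads) were left out.

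These counts went into edgeR 4.0.16 under R 4.3.3 (TMM factors 0.997 to 1.003, filterByExpr by group, robust quasi-likelihood F test, two-sided), with all 6 libraries in 1 fit (3 residual degrees of freedom) and Benjamini-Hochberg adjustment over the 13548 genes tested. Changes are therefore relative to the bulk of genes. Standard errors were taken as the absolute log2 fold change divided by √F. The biological coefficient of variation was 1.79%, so small changes can pass. Replicates differed by more than counting noise (chi-square per degree of freedom 1.52 to 1.98 over genes with at least 20 reads). The fit was tested on simulated data.

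CPM use TMM-scaled totals. Transcript length, GC content and ATTTA counts came from GENCODE release 29 (principal, else longest transcript), matched by symbol for 88.3% of genes tested. Corrected values add per-library offsets from a smooth fit on length and GC content (mgcv 1.9.3). DESeq2 1.42.0, RLE factors, unscaled totals, other filters (none, or a mean count of at least 50), fits of 2 groups, a replicate block, an adjusted p threshold of 0.01 and leaving out each library were the alternatives.

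The 10 genes and the list of other apoptosis genes were chosen with earlier results of these data known. All 10 are named. Of the others, the 6 with the largest called change at each dose are named, with BCL2, BCL2L2, XIAP and DIABLO, and any others are said to have been named after their values were seen. Some results are not reported here.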

Additional observations from a re-analysis of the deposited data

How the results depend on the processing

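The number of the 10 genes called stayed within 1.5 times of the reported one under every alternative run, from 6 to 8 at the lower dose, 6 to 7 at the higher dose and 5 to 7 between the doses. The directions of all called genes among the 10 were kept in these alternatives. The calls for BMF, PMAIP1, BAK1, BIRC2 and BIRC3 held in all 3 comparisons under every alternative, except that DESeq2 gave no adjusted p for BMF at the lower dose. With DESeq2, 6 of the other apoptosis genes were called at the lower dose in place of 13, and over all genes 2562 in place of 4418 at the lower dose and 2758 in place of 4612 between the doses; the cause was not tested. Libraries lettered a or b did not deviate together (correlations between groups of −0.05, 0.07 and −0.05 over 10892 genes), so the letters were not taken to pair them. With the letter as a replicate block, 8, 7 and 7 of the 10 genes were called, the same numbers as without it, and no call among them changed. Genes with few reads, BMF, BCL2L11 and BBC3 (50 to 318 reads), had the widest intervals.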
